A study of Drosophila melanogaster with 18 samples.

Results

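The 10 genes described here run the cell cycle engine and were measured in ovaries of Drosophila melanogaster. They were the cyclins CycA, CycB, CycB3, CycD and CycE, the cyclin-dependent kinases Cdk1, Cdk2 and Cdk4, and the Cdc25 phosphatases stg (string) and twe (twine). They were chosen by FlyBase symbol, and each symbol was mapped to its FBgn identifier in the count table. All 10 were found among the 17611 genes of that table, and all 10 were among the 9037 genes with enough reads to be tested.

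A cyclin-dependent kinase (Cdk) is active only with a cyclin bound, and the cyclins are made and destroyed in turn through the cycle. CycD with Cdk4 acts in growth and G1 phase, CycE with Cdk2 starts S phase, and CycA, CycB and CycB3 with Cdk1 drive mitosis. Cdc25 phosphatases remove the inhibitory phosphates that the kinases Wee1 and Myt1 place on Cdk1. In the fly ovary this machinery serves the divisions of germline stem cells, cysts and young follicle cells, the endocycles of nurse cells and follicle cells, and the meiosis of the oocyte.

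Poly-A RNA was sequenced from ovaries of wild-type flies from 2 inbred lines named HP and LP, for high and low plasticity. Each line had 3 groups of 3 libraries, which the labels call biological replicates. The groups were ovaries in diapause at 12 °C, ovaries of flies that were reproductive at 12 °C, and ovaries of 28-day-old age controls at 25 °C. No age is stated in the labels for flies at 12 °C. The tissue was labelled as ovary stages 1 to 7, that is, the stages before yolk uptake. Diapause is an arrest of egg production. The age controls differ from the other groups in temperature as well as in state, so the parts of temperature, age and state cannot be told apart in any comparison with them. Diapause and reproductive ovaries shared the temperature of 12 °C.

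Total counts ran from 14352846 to 21343992 per library. Marker genes were set against the tissue label. All 9 germline markers were present in every group, with a summed level of 3283 to 3669 CPM (counts-per-million, scaled by TMM) in HP diapause, 3751 to 3851 in HP reproductive and 3038 to 3417 in HP age-control libraries. The same sum was 3375 to 3658, 3343 to 3642 and 2692 to 2927 CPM in the LP groups in that order. Present means here only that the group's count was not 0. The germline markers nanos and bam went against the sum, being lower in diapause than in age controls in both lines (values below). The 16 eggshell genes, which mark late follicle cells, were also all present in every group, against the stage label. Their sum was 353 to 470 CPM in HP diapause, 1439 to 2362 in HP reproductive and 5370 to 10018 in HP age-control libraries. In the LP line it was 1258 to 3953, 5198 to 6287 and 11554 to 15835 CPM. The value of 3953 CPM belonged to LP diapause replicate 2, and the other libraries of that group were near the lower end. Summed over their lists, early follicle and escort cell markers (10 genes, en at 0 in both diapause groups) held 575 to 754 CPM at 12 °C and 255 to 433 CPM at 25 °C. Haemocyte markers (10 genes, He at 0 in HP diapause, HP reproductive, LP diapause and LP age control) held 1752 to 2771 and 664 to 1284 CPM. Muscle markers (13 genes, none at 0) held 1225 to 2132 and 709 to 1339 CPM, and fat body markers (7 genes, Fbp1 at 0 in HP reproductive and in both age-control groups) 2432 to 6115 and 2957 to 4525 CPM. The haemocyte list held vkg, Col4a1 and SPARC, and the fat body list held Yp1, Yp2 and Yp3. Which cells these reads came from was not tested, so the sums need not measure those cell types alone. The part of these differences in the results that follow was not tested. In bulk tissue, fewer cells of a type and less RNA per cell cannot be told apart.

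The 10 genes were not equally abundant. Levels between genes were compared per length, as TMM-scaled RPKM (CPM divided by kilobases) over the union of each gene's exons, and a gene with several transcripts of unlike length is only roughly placed by that measure. CycB was highest in each of the 6 groups and CycA came next. CycB held 575 ± 6.32 RPKM and CycA 381 ± 5.82 RPKM in HP diapause ovaries, against 68.2 ± 3.56 RPKM for Cdk1, the kinase they share (SD, n = 3). Together CycA and CycB made up 76.1 to 78.4% of the summed RPKM of the 10 genes in the 12 libraries from 12 °C, and 68.2 to 71.5% in the 6 age-control libraries.

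Below that pair the order depended on the group. In HP diapause ovaries Cdk1 was followed by stg (57.5 RPKM), CycD (42.4 RPKM), CycB3 (33.9 RPKM), Cdk4 (33.2 RPKM), Cdk2 (25.5 RPKM), CycE (20.5 RPKM) and twe (13.7 RPKM). The only neighbours in that order whose 3 libraries overlapped were CycB3 and Cdk4. LP diapause ovaries had the same first 4 places, then Cdk4 (37.3 RPKM), CycD (36.3 RPKM), CycB3 (32.7 RPKM), Cdk2 (27.1 RPKM), CycE (17.1 RPKM) and twe (14.6 RPKM). There Cdk4 overlapped CycD, and CycE overlapped twe. In HP age controls stg (127 RPKM), Cdk1 (115 RPKM) and CycB3 (114 RPKM) overlapped in turn. CycE (66.9 RPKM), CycD (53.4 RPKM) and twe (51.7 RPKM) followed, again with overlap between neighbours, and Cdk2 (36.9 RPKM) and Cdk4 (34.7 RPKM) closed the order. LP age controls put Cdk1 at 126 RPKM, stg at 122 RPKM and CycB3 at 116 RPKM, with overlap between neighbours, and ended with Cdk2 (42.1 RPKM) above Cdk4 (35.3 RPKM). Both reproductive groups kept CycB, CycA, Cdk1 and stg in the first 4 places and twe in the last, at 16.8 RPKM in HP and 18.9 RPKM in LP ovaries.

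**Figure D1:**
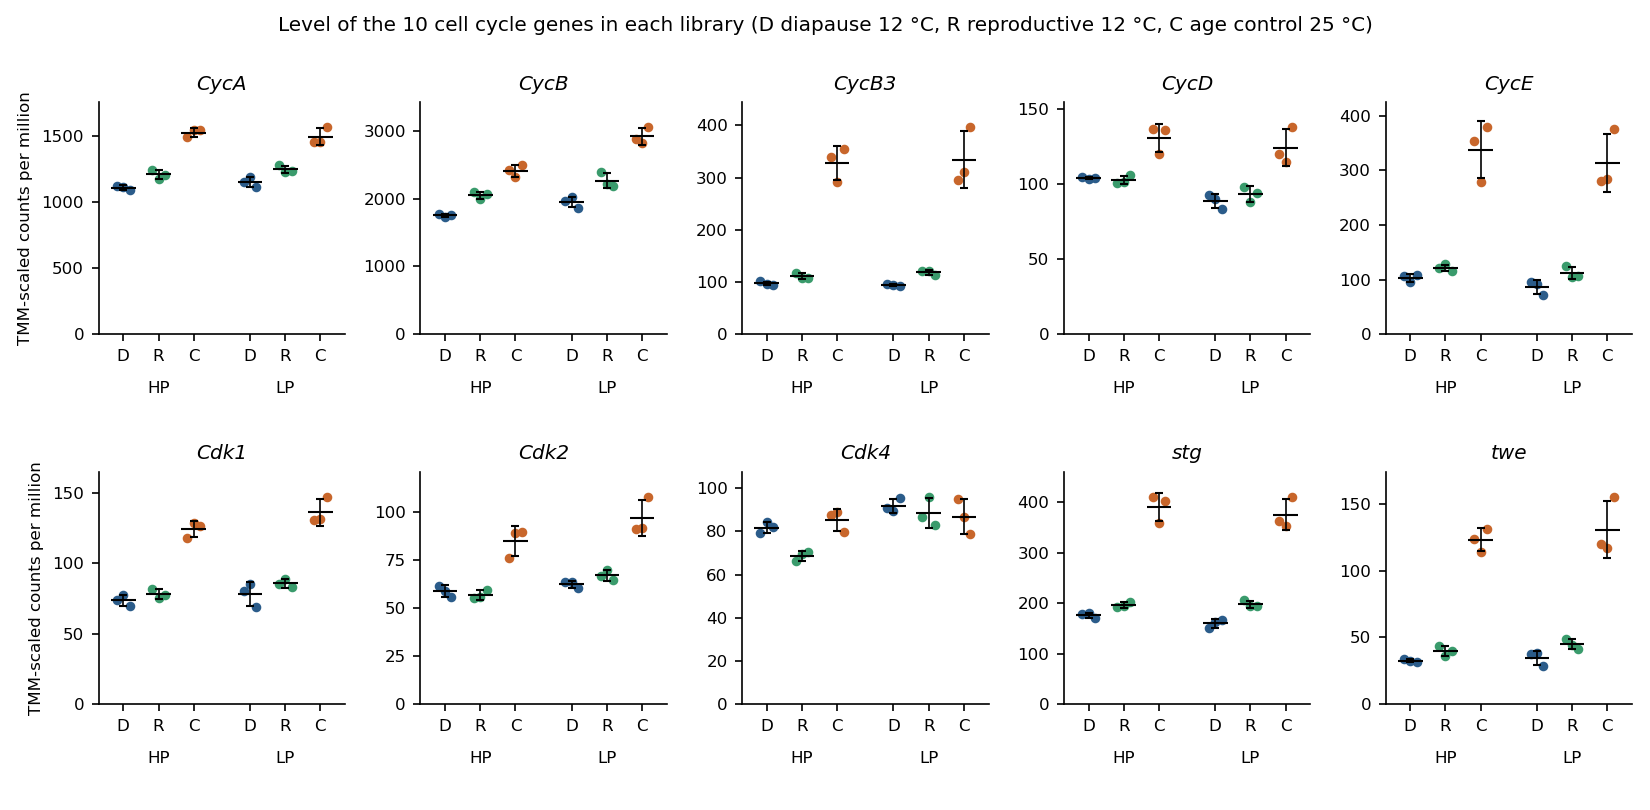
Level of each of the 10 genes in TMM-scaled CPM (vertical axis, from 0) in the 18 libraries, by line and state. Points are libraries and bars are the group mean with its SD (n = 3). For CycB3, CycE, stg and twe the age-control libraries lie well above those from 12 °C, and for Cdk4 the LP groups overlap.

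The first question was how ovaries from 12 °C, in either state, compared with those of the 25 °C age controls. CycB3, CycE, stg and twe were the members with the largest differences, 1.90-fold to 3.79-fold lower than in age controls, and CycA, CycB and CycD had small ones. In HP diapause ovaries 9 of the 10 genes were lower than in age controls by edgeR's quasi-likelihood test (Benjamini-Hochberg adjusted p under 0.05 over the 9037 tested genes), where 34.7% of tested genes were lower. In LP diapause ovaries 9 of 10 were lower, against 35.3% of tested genes. In reproductive ovaries 10 of 10 were lower in HP, against 33.1% of tested genes, and 9 of 10 in LP, against 33.7%. The median log2 difference of the 10 genes was −0.64 and −0.72 in HP and LP diapause ovaries and −0.63 and −0.60 in HP and LP reproductive ovaries, beside 0.01, 0.03, 0.01 and 0.00 over all tested genes. The diapause and the reproductive comparison of a line share its age-control libraries.

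Among the mitotic cyclins, CycB3 fell by far the most. CycB3 (FBgn0015625, chromosome arm 3R from 24867934 to 24870816, minus strand) encodes the cyclin that acts with Cdk1 late in mitosis and is needed for female meiosis. HP ovaries held 101, 97.4 and 94.7 CPM of CycB3 in diapause, 118, 108 and 108 CPM when reproductive, and 339, 291 and 354 CPM in age controls. LP ovaries held 95.9, 94.3 and 92.6 CPM, then 122, 122 and 114 CPM, then 295, 311 and 396 CPM. Every age-control library stood above every library from 12 °C. Diapause ovaries had 3.35-fold less CycB3 than age controls in HP (log2 −1.74, SE 0.09, adjusted p = 6.2e-12) and 3.55-fold less in LP (−1.83, SE 0.09, adjusted p = 1.8e-12). Reproductive ovaries had 2.95-fold less (−1.56, SE 0.09) and 2.81-fold less (−1.49, SE 0.09).

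CycA (FBgn0000404, 3L from 11826719 to 11833578, minus strand), whose protein is needed for entry into mitosis, changed far less. Its level was 1124, 1117 and 1092 CPM in HP diapause, 1248, 1175 and 1210.4 CPM in HP reproductive and 1491, 1547 and 1547 CPM in HP age-control libraries. In the LP groups it was 1156, 1189 and 1119.7 CPM, 1281, 1231 and 1235 CPM, and 1458, 1459 and 1570.0 CPM. Age controls were again above every other library of their line. The fall in diapause against age control was 1.38-fold in HP (−0.46, SE 0.05, adjusted p = 9e-08) and 1.30-fold in LP (−0.37, SE 0.05, adjusted p = 1.3e-06), and that in reproductive ovaries was −0.34 and −0.26 on the log2 scale.

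CycB (FBgn0000405, 2R from 22803521 to 22806948, minus strand) encodes the other main partner of Cdk1, and its mRNA is loaded into the egg. HP libraries had 1771, 1733 and 1757 CPM of CycB in diapause, 2098, 1996 and 2059 CPM when reproductive and 2424, 2312 and 2491 CPM in age controls. LP libraries had 1968, 2019 and 1865 CPM, 2392, 2218 and 2180.3 CPM, and 2872, 2819 and 3051 CPM. No 2 states of a line overlapped, with diapause lowest and age control highest. CycB was 1.37-fold lower in HP diapause (−0.46, SE 0.06, adjusted p = 3.5e-07) and 1.49-fold lower in LP diapause (−0.58, SE 0.06, adjusted p = 9.7e-09) than in age controls, with −0.23 and −0.36 in reproductive ovaries.

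Of the cyclins of G1 and S phase, CycE fell strongly and CycD slightly. CycE (FBgn0010382, 2L from 15727581 to 15748150, minus strand) drives S phase in dividing cells and in the endocycles of nurse and follicle cells. HP ovaries held 106, 95.1 and 109.5 CPM of CycE in diapause, 121, 128 and 116 CPM when reproductive and 354, 279 and 379 CPM in age controls. LP ovaries held 95.5, 91.6 and 72.0 CPM, 124, 105 and 106 CPM, and 281, 285 and 375 CPM. The age-control libraries were the highest and also the most spread. CycE was 3.25-fold lower in HP diapause (−1.70, SE 0.14, adjusted p = 1.9e-08) and 3.63-fold lower in LP diapause (−1.86, SE 0.14, adjusted p = 5e-09) than in age controls. The reproductive values were −1.47 (SE 0.13) and −1.49 (SE 0.13). Annotated antisense RNAs overlap 2.97% and 1.94% of the exon length of CycE, with 44 and 223 reads in all libraries together beside 65759 of CycE. CycD (FBgn0010315, X from 15906822 to 15909676, minus strand), the partner of Cdk4, ranged from 83.8 to 106.0 CPM in the 12 libraries from 12 °C and from 114 to 138 CPM in the 6 age-control libraries. It was lower than in age controls by 0.33 and 0.48 (log2, HP and LP diapause, adjusted p = 0.00024 and 2.9e-06) and by 0.35 and 0.41 in reproductive ovaries.

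Of the 3 kinases, Cdk1 and Cdk2 were lower at 12 °C and Cdk4 was not, save in HP reproductive ovaries. Cdk1 (FBgn0004106, 2L from 10384739 to 10386262, minus strand), the kinase of mitosis and meiosis, held 73.9, 77.6 and 69.9 CPM in HP diapause, 81.8, 75.3 and 77.4 CPM in HP reproductive and 118, 129 and 127 CPM in HP age-control libraries. In LP it held 80.7, 85.4 and 69.1 CPM, 85.6, 88.7 and 83.0 CPM, and 131, 131 and 147 CPM. All 6 age controls were above all 12 other libraries. Cdk1 was 1.69-fold lower in HP diapause (−0.76, SE 0.07, adjusted p = 1.3e-08) and 1.74-fold lower in LP diapause (−0.80, SE 0.07, adjusted p = 3.6e-09), and −0.67 in the reproductive ovaries of each line. Cdk2 (FBgn0004107, 3R from 20735623 to 20738414, plus strand), the S phase kinase, ranged from 55.0 to 69.7 CPM at 12 °C and from 75.9 to 108 CPM in age controls. Its log2 differences from age controls were −0.53 and −0.64 in HP and LP diapause and −0.58 and −0.53 in HP and LP reproductive ovaries, and all 4 passed the test. CG17267 on the other strand overlaps 43.93% of the exon length of Cdk2 but had 6 reads in all libraries together, beside 25093 of Cdk2.

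Cdk4 (FBgn0016131, 2R from 16579470 to 16585448, plus strand), the growth-linked kinase that pairs with CycD, was the exception. HP ovaries held 79.2, 84.2 and 81.9 CPM of Cdk4 in diapause, 66.1, 69.7 and 70.3 CPM when reproductive and 87.7, 89.0 and 79.7 CPM in age controls. LP ovaries held 90.7, 89.4 and 95.3 CPM, 86.5, 96.0 and 82.9 CPM, and 94.8, 86.9 and 78.7 CPM. The 3 LP groups overlapped, while the HP reproductive libraries were below every other library. The difference from age controls was −0.06 in HP diapause (95% interval −0.21 to 0.08, adjusted p = 0.43), 0.08 in LP diapause (−0.06 to 0.23, adjusted p = 0.30) and 0.03 in LP reproductive ovaries (−0.12 to 0.17, adjusted p = 0.73). In HP reproductive ovaries Cdk4 was lower than in age controls (−0.32, SE 0.07, adjusted p = 0.00052). These small values depended on how libraries were scaled. Scaled by total counts, Cdk4 was lower than in age controls in HP diapause (−0.21, adjusted p = 0.0085) and LP reproductive ovaries (−0.16, adjusted p = 0.041), and −0.15 (adjusted p = 0.053) in LP diapause ovaries. An annotated antisense RNA overlaps 6.74% of the exon length of Cdk4, with 300 reads in all libraries together beside 28972 of Cdk4.

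Both Cdc25 genes were among the large differences. stg (FBgn0003525, 3R from 29251826 to 29255800, minus strand) encodes the phosphatase that triggers mitosis in most dividing cells. HP libraries had 179, 179 and 170.4 CPM of stg in diapause, 192, 194 and 203 CPM when reproductive and 411, 359 and 401 CPM in age controls. LP libraries had 151, 162 and 167 CPM, 205, 193 and 193 CPM, and 362, 353 and 409.9 CPM. No 2 states of a line overlapped. stg was 2.22-fold lower in HP diapause (−1.15, SE 0.06, adjusted p = 7.1e-12) and 2.35-fold lower in LP diapause (−1.23, SE 0.06, adjusted p = 1.6e-12) than in age controls, with −0.99 and −0.93 in reproductive ovaries.

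twe (FBgn0002673, 2L from 16259414 to 16261877, minus strand) encodes the Cdc25 of the germline, needed for meiosis. HP ovaries held 33.6, 32.3 and 31.6 CPM of twe in diapause, 43.7, 36.0 and 39.9 CPM when reproductive and 124, 114 and 131 CPM in age controls. LP ovaries held 37.5, 38.2 and 28.6 CPM, 48.9, 44.3 and 41.5 CPM, and 119.5, 117 and 155 CPM. Age controls stood far above the rest, and diapause libraries were the lowest of their line. Of the 10 genes twe had the widest range between groups, 4.02-fold from the lowest to the highest group mean, followed by CycE with 3.91-fold and CycB3 with 3.55-fold, while Cdk4 had the narrowest with 1.34-fold. Diapause ovaries had 3.79-fold less twe than age controls in HP (−1.92, SE 0.12, adjusted p = 8.8e-11) and 3.75-fold less in LP (−1.91, SE 0.12, adjusted p = 4.7e-11), and reproductive ovaries 3.09-fold and 2.91-fold less. The exons of twe share 98 bases with EndoGI on the other strand, an inhibitor of a nuclease, and whether counting used strand was not given. EndoGI moved the other way, 0.55 and 0.56 higher (log2) in HP and LP diapause than in age controls.

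**Figure D2:**
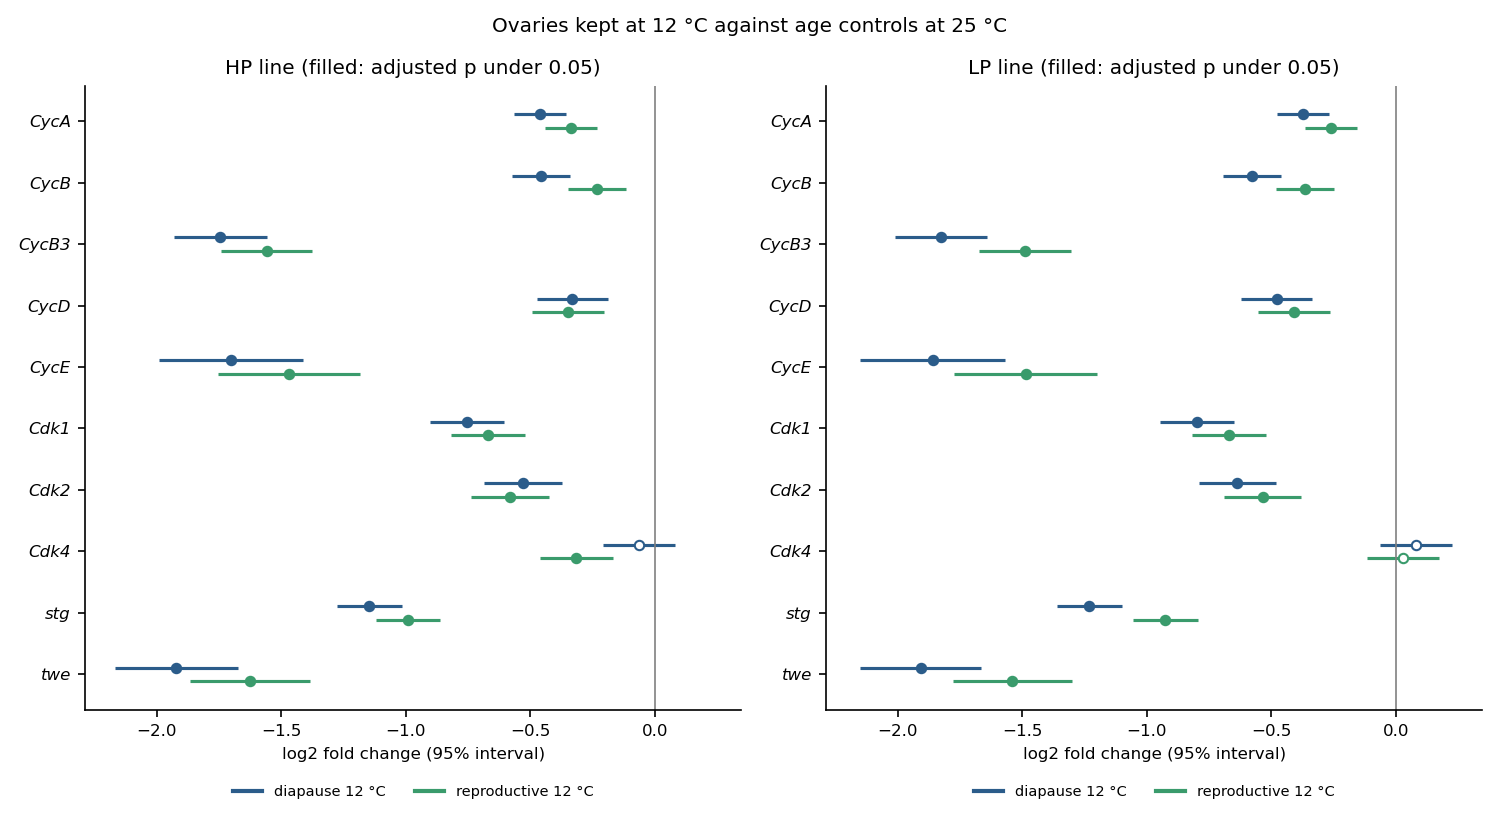
Log2 fold change (horizontal axis) of each gene in diapause and in reproductive ovaries at 12 °C against age controls at 25 °C, in the HP line (left) and the LP line (right), with 95% intervals from the edgeR fit. Filled points passed an adjusted p of 0.05. CycB3, CycE and twe lie near −1.5 to −1.9, stg near −1, and Cdk4 near 0 except in HP reproductive ovaries.

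Of the 40 tests against age controls 37 passed, and each of the 37 also passed in every fit with 1 library left out and in all 6 other settings tried. Scaling by total counts moved the median of all tested genes to −0.13 and −0.20 in HP and LP diapause and to −0.10 and −0.19 in HP and LP reproductive ovaries, so all such differences shift down by about that much. The share of calls that were higher then went from 49.5 to 38.6%, from 50.9 to 36.0%, from 49.3 to 39.3% and from 50.1 to 35.4%. The eggshell and germline sums given above, and the non-germline lists, differed between the same groups, and their part in these results was not tested. Among the 6 settings was a scaling with all marker genes other than those of the germline left out. That setting changes only the scaling and leaves the member counts as they were, so it cannot show the part of tissue composition.

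The second question was whether diapause ovaries differed from reproductive ovaries at the same temperature. The differences were small. Averaged over both lines, CycB, CycB3, stg, twe and CycA were lower in diapause ovaries, by 8 to 21%. In that mean contrast 5 of the 10 genes passed, all lower, against 5.94% of tested genes. In the HP line alone 0 of 10 passed (edgeR), against 0.653% of tested genes lower, with 5 of 10 called when only the compared groups were fitted (8.04% of genes tested there, either direction) and 2 by DESeq2 (3.51%). At an unadjusted p under 0.05 in that line were CycA, CycB, CycB3, Cdk4, stg and twe, 6 of 10 against 16.1% of tested genes. In the LP line stg alone was lower, against 1.11% of tested genes, with 6 of 10 lower by DESeq2 (3.46% of tested genes). The median log2 difference of the 10 genes was −0.14 in HP, −0.17 in LP and −0.17 in the mean, beside 0.00, 0.01 and 0.01 over all tested genes. The diapause and reproductive libraries did not overlap for 7 of the 10 genes in each line, against 28.1% of tested genes in HP and 26.1% in LP.

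CycB was lower in diapause by 0.22 (mean of the lines, log2, SE 0.04, adjusted p = 0.0026), which is 14.2% less, with −0.23 in HP (adjusted p = 0.057) and −0.21 in LP (adjusted p = 0.055). Its mean call held in all 12 fits with 1 library left out. The mean stg value was −0.23 (SE 0.04, adjusted p = 0.0042) and held in all 12 as well. In LP ovaries alone stg was lower by 0.30 (SE 0.06, adjusted p = 0.028), a 1.24-fold difference, and in HP it was −0.16 (adjusted p = 0.22). The LP call was lost without LP diapause replicate 1 (−0.26, adjusted p = 0.14) or 3 (−0.34, adjusted p = 0.094), or LP reproductive replicate 1 (−0.28, adjusted p = 0.11), 2 (−0.32, adjusted p = 0.069) or 3 (−0.32, adjusted p = 0.072). Without LP diapause replicate 2, the library with the high eggshell sum, it was −0.31 (adjusted p = 0.030).

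CycB3 was lower by 0.26 in the mean (SE 0.06, adjusted p = 0.015), with −0.18 in HP (adjusted p = 0.31) and −0.34 in LP (adjusted p = 0.059). Without HP reproductive replicate 1 the mean was −0.24 (adjusted p = 0.053). twe was lower by 0.33 (SE 0.08, adjusted p = 0.020), with −0.29 in HP and −0.37 in LP. Its call was lost without HP diapause replicate 3 (−0.32, adjusted p = 0.053), HP reproductive replicate 1 (−0.30, adjusted p = 0.064), LP diapause replicate 3 (−0.27, adjusted p = 0.054) or LP reproductive replicate 1 (−0.30, adjusted p = 0.057). CycA was lower by 0.12 (SE 0.04, adjusted p = 0.040), the smallest called difference. When each library in turn was dropped, 10 of 12 fits no longer called CycA, and over the 12 the difference ran from −0.13 to −0.11 and the adjusted p from 0.041 to 0.11. It held without HP reproductive replicate 2 and without LP diapause replicate 2, and was lost with no filter on low counts (adjusted p = 0.073).

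The other members did not pass. CycE had a mean difference of −0.30 (95% interval −0.51 to −0.10, adjusted p = 0.057), the second largest in size, with a wide spread among its libraries. Cdk4 went the other way, 0.15 higher in diapause (0.05 to 0.26, adjusted p = 0.056), with 0.25 in HP (adjusted p = 0.094) and 0.05 in LP (adjusted p = 0.76). CycE and Cdk4 were both called in this contrast by DESeq2 (adjusted p = 0.0080 and 0.042) and when only the groups compared were fitted (0.010 and 0.016), which made 7 of 10 called in each, against 13.9% and 18.8% of tested genes. Cdk1 was −0.11 (−0.21 to 0.00), CycD −0.03 (−0.13 to 0.08) and Cdk2 −0.03 (−0.14 to 0.09). Eggshell sums differed between these groups too, with the values given above, and their part was not tested. Without LP diapause replicate 2 the same number of members passed, 1 in LP and 5 in the mean. Over all genes that fit called 247 in LP and 906 in the mean, against 131 and 855 with all libraries. The background therefore moved while the member counts did not. Total-count scaling lowered the share of calls in the higher direction over all genes from 23.4 to 13.7% in HP, from 23.7 to 13.2% in LP and from 37.2 to 18.3% in the mean.

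**Figure D3:**
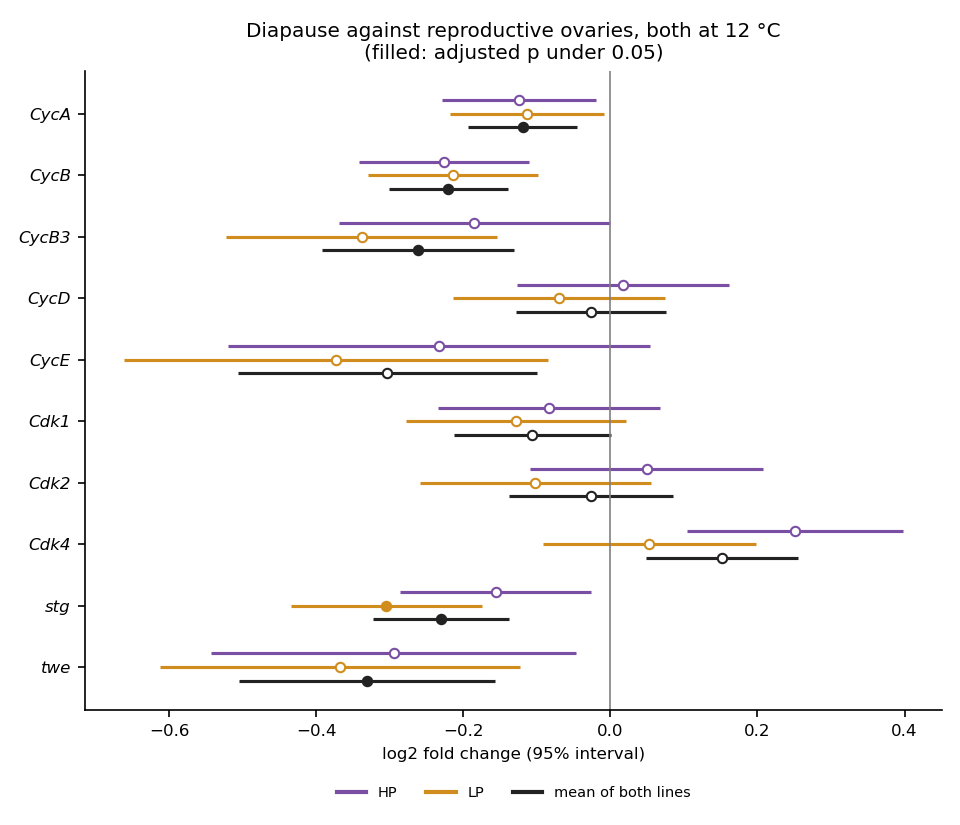
Log2 fold change (horizontal axis) of each gene in diapause against reproductive ovaries, both at 12 °C, in HP, in LP and as the mean of both lines, with 95% intervals from the edgeR fit. Filled points passed an adjusted p of 0.05. CycA, CycB, CycB3, stg and twe are filled in the mean, stg also in LP, and Cdk4 lies to the right of 0.

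Between the lines, the log2 differences of the 10 genes (LP minus HP) ran from −0.26 to 0.17 in diapause. They ran from −0.14 to 0.37 in reproductive ovaries and from −0.11 to 0.27 in age controls. With only 10 genes, the counts called were too near the shares over all tested genes to be read as a trait of the members. In diapause CycB was higher in LP than HP (0.15, SE 0.06, adjusted p = 0.038) and CycD lower (−0.22, SE 0.07, adjusted p = 0.017), 2 of 10 genes, where 32.6% of tested genes differed in either direction. Dropping single libraries removed the CycB call in 5 of 6 fits, in each except that without LP diapause replicate 3 (range 0.13 to 0.18). The CycD call was lost without that replicate (−0.19, adjusted p = 0.080). Among reproductive ovaries Cdk4 (0.37, SE 0.07, adjusted p = 0.00042) and Cdk2 (0.24, SE 0.08, adjusted p = 0.019) were higher in LP, 2 of 10 against 35.1% of tested genes. The Cdk2 call was lost without HP reproductive replicate 1 (0.21, adjusted p = 0.076) or 2 (0.22, adjusted p = 0.072) or LP reproductive replicate 2 (0.20, adjusted p = 0.091). In age controls CycB (0.27, SE 0.06, adjusted p = 0.00045) and Cdk2 (0.19, SE 0.07, adjusted p = 0.042) were higher in LP, 2 of 10 against 41.9%. Cdk2 was 0.11 (adjusted p = 0.27) without HP age-control replicate 1 and 0.10 (adjusted p = 0.32) without LP age-control replicate 3. Over all genes, total-count scaling moved the share of calls higher in LP age controls from 47.6 to 62.1%.

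Whether a state difference itself differed between the lines was tested by interaction contrasts (LP difference minus HP difference). For diapause against reproductive 0 of 10 members passed, where 0.0% of tested genes did by edgeR (0 genes, with 366 at an unadjusted p under 0.05 and 6 called by DESeq2). The members' values ran from −0.20 for Cdk4 to 0.01, and 0 of 10 were at an unadjusted p under 0.05. For diapause against age control 0 of 10 passed against 18.4%, with values from −0.16 to 0.15. For reproductive against age control Cdk4 alone passed (0.34, SE 0.10, adjusted p = 0.020), 1 of 10 against 16.6%, and the other values ran from −0.13 to 0.09. The Cdk4 call was lost without HP reproductive replicate 1 (0.32, adjusted p = 0.057), LP reproductive replicate 2 (0.28, adjusted p = 0.070) or LP age-control replicate 3 (0.28, adjusted p = 0.055). It was also lost with total-count scaling (0.27, adjusted p = 0.054). Over all genes that scaling moved the share of interaction calls above 0 from 60.5 to 42.7% for diapause and from 58.4 to 41.4% for reproductive ovaries against age controls.

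Ratios between partner genes within a library do not depend on how libraries are scaled. For 7 pairs the ratio of reads per kilobase was compared between states, with state labels permuted within each line (exact two-sided permutation test, 400 assignments, smallest possible p 0.005, adjusted over 21 tests). Against age controls the balance of the mitotic cyclins to Cdk1 shifted in both directions. In HP ovaries the CycB3/Cdk1 ratio was 0.498 ± 0.0236 in diapause, 0.534 ± 0.00691 when reproductive and 0.991 ± 0.124 in age controls, and 0.454 ± 0.0447, 0.522 ± 0.0104 and 0.916 ± 0.0835 in LP (SD, n = 3). It was lower than in age controls by 1.00 (log2) in diapause and by 0.85 in reproductive ovaries (adjusted p = 0.0075 each by the exact permutation test). CycA/Cdk1 went up instead, by 0.36 and 0.37, and CycB/Cdk1 by 0.26 and 0.37 (adjusted p = 0.0075 each).

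The CycE/Cdk2 ratio, of the S phase pair, had the largest shift. HP ovaries had 0.806 ± 0.0842 in diapause, 0.981 ± 0.0818 when reproductive and 1.83 ± 0.358 in age controls, and 0.630 ± 0.0745, 0.764 ± 0.0826 and 1.47 ± 0.101 in LP. Relative to age controls it was lower by 1.20 in diapause and by 0.91 in reproductive ovaries (adjusted p = 0.0075 each by the exact permutation test). CycD/Cdk4 was lower by 0.41 in diapause (adjusted p = 0.0075), and in reproductive ovaries the difference of −0.23 did not pass (adjusted p = 0.061; −0.28, adjusted p = 0.007, without HP age-control replicate 2). The stg/twe ratio rose, from 2.46 ± 0.101 in HP age controls to 4.21 ± 0.0897 in HP diapause and from 2.25 ± 0.172 to 3.65 ± 0.770 in LP (0.73 in diapause and 0.62 in reproductive ovaries, adjusted p = 0.0075 each). The ratio of stg to Wee1, the kinase that opposes it, was lower by 0.57 and 0.46 (adjusted p = 0.0075 each).

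At 12 °C the ratios separated diapause from reproductive ovaries only slightly. By the same exact permutation test CycB3/Cdk1 (−0.15, adjusted p = 0.0075), CycE/Cdk2 (−0.28, adjusted p = 0.021), CycD/Cdk4 (−0.18, adjusted p = 0.026) and stg/Wee1 (−0.11, adjusted p = 0.049) were lower in diapause. CycB/Cdk1 (−0.11, adjusted p = 0.053), CycA/Cdk1 (−0.01, adjusted p = 0.85) and stg/twe (0.11, adjusted p = 0.34) did not pass. CycE/Cdk2 passed in all 12 tests with 1 library left out. With labels permuted inside same-numbered replicates, CycE/Cdk2 (adjusted p = 0.077), CycD/Cdk4 (0.077) and stg/Wee1 (0.10) did not pass. That test has 64 assignments in place of 400, so its smallest possible p is larger. Whether the numbers pair the libraries is not known. CycB3/Cdk1 did not pass without LP reproductive replicate 1 (−0.14, adjusted p = 0.056). CycD/Cdk4 did not pass without HP diapause replicate 2 (−0.17, adjusted p = 0.059), LP diapause replicate 3 (−0.15, adjusted p = 0.088) or LP reproductive replicates 1 (−0.15, adjusted p = 0.092) and 3 (−0.15, adjusted p = 0.086). CycB/Cdk1 passed without HP diapause replicate 3 (−0.13, adjusted p = 0.039), LP diapause replicate 3 (−0.14, adjusted p = 0.014) or LP reproductive replicate 2 (−0.13, adjusted p = 0.039). The stg/Wee1 value failed in 6 of 12, those without HP diapause replicate 2, HP reproductive replicate 3, LP diapause replicate 1 or any LP reproductive replicate, with a range of −0.13 to −0.09. In the HP line that ratio differed by −0.01 and in LP by −0.21.

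**Figure D4:**
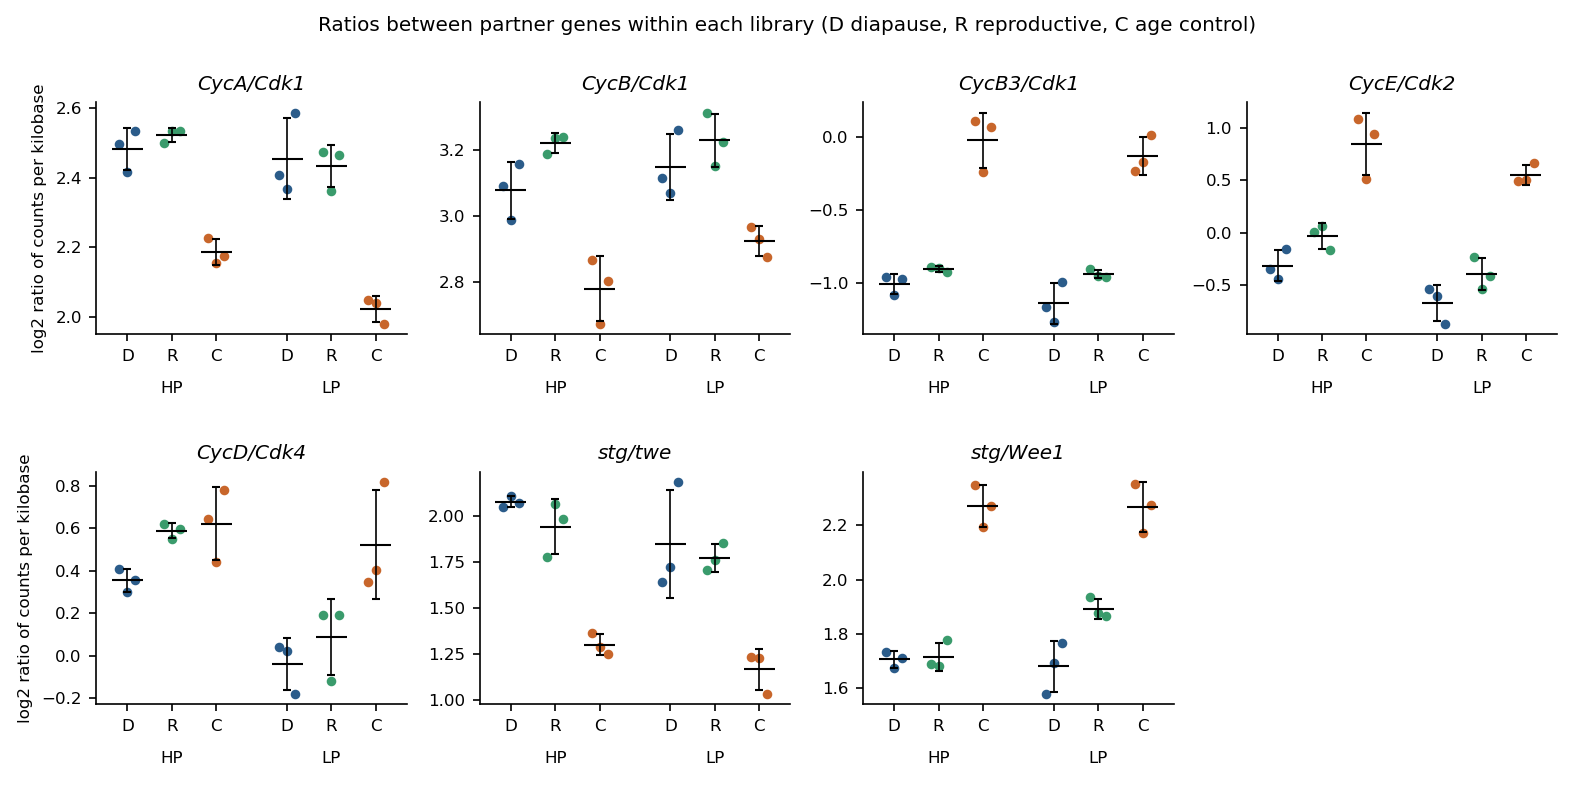
Log2 ratio of reads per kilobase (vertical axis, not from 0) between partner genes in each of the 18 libraries, by line and state. Points are libraries and bars the mean with its SD (n = 3). CycB3/Cdk1, CycE/Cdk2 and stg/Wee1 are highest in age controls, while CycA/Cdk1, CycB/Cdk1 and stg/twe are lowest there.

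The regulators around these genes were read from 8 lists with 54 genes, all of which were tested. The lists, like the members, were chosen with earlier results of these data known, so their counts describe the lists and test nothing. Lower than in age controls were 36 and 38 of the 54 in HP and LP diapause and 31 and 36 in HP and LP reproductive ovaries, beside 34.7, 35.3, 33.1 and 33.7% of all tested genes. With total-count scaling the shares over all tested genes were 42.8, 46.8, 39.5 and 44.9%. The Cdk inhibitors and inhibitory kinases fell as well. All 4 of them were lower in diapause than in age controls in both lines, beside 34.7% of tested genes in HP and 35.3% in LP. Wee1 was −0.58 in HP and −0.65 in LP, Myt1 −0.60 and −0.65, and dap, the inhibitor of CycE with Cdk2, −0.85 and −1.10 (SE 0.06 to 0.09). rux, an inhibitor of CycA with Cdk1, was −0.28 and −0.32, calls that 4 and 3 of the 6 fits on a reduced set of libraries no longer made (−0.16 without HP age-control replicate 2 and −0.21 without LP age-control replicate 2). In reproductive ovaries Wee1, Myt1 and dap were lower and rux was not called in either line. The list median in diapause was −0.59 and −0.65.

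Of the Cdk-activating kinase and Cks list 3 of 5 genes were lower and 0 higher in each of the 4 comparisons with age controls, beside 33.1 to 35.3% of tested genes. They were Cks30A (−1.37 in HP and −1.56 in LP diapause), a Cdk-binding subunit of the female germline, CycH (−0.61 and −0.59) and Mat1 (−0.29 and −0.38). The Mat1 call in HP reproductive ovaries (−0.25) was lost without HP reproductive replicate 2 (−0.22, adjusted p = 0.065) and was −0.15 (adjusted p = 0.12) without HP age-control replicate 2. Cdk7, the catalytic subunit, was 0.06 and −0.07 in diapause and was not called. With total-count scaling it was lower in LP diapause (−0.30, adjusted p = 0.00036) and LP reproductive ovaries (−0.29, adjusted p = 0.00056), which made 4 of 5 there.

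In the list of G1/S transcription factors E2f2 (−0.87 in HP and −1.01 in LP diapause), a repressor, and Rbf2 (−1.82 and −1.78), its partner, had larger differences than E2f1 (−0.34 and −0.19), the activator, and Rbf (−0.23 and −0.18), the main retinoblastoma protein. All 4 genes were lower in diapause than in age controls in both lines, beside 34.7 and 35.3% of tested genes. The LP calls of E2f1 and Rbf were each lost when some single libraries were left out, 2 and 3 of the 6, with adjusted p up to 0.081 and 0.13. Dp was 0.10 higher in LP diapause (adjusted p = 0.030), a call lost without LP diapause replicate 1 or 3 or LP age-control replicate 1 or 2 (adjusted p up to 0.12), and with total-count scaling it was lower (−0.13, adjusted p = 0.0091). All 7 E2F targets of S phase were lower in each of the 4 comparisons with age controls, beside 33.1 to 35.3% of tested genes. No other list had every gene called in all 4, though the inhibitor list did in both diapause comparisons. Orc1, of the origin recognition complex, was −2.23 and −2.14 in HP and LP diapause, RnrL, of ribonucleotide reductase, −1.38 and −1.34, dup (Cdt1), which licenses origins, −1.23 and −1.35, and Mcm5, of the replicative helicase, −0.95 and −1.20. The median of the list was −0.95 in HP and −1.20 in LP diapause.

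Genes that destroy cyclins and Cdc25 were divided. Of 9 genes 6 were lower in each of the 4 comparisons with age controls, beside 33.1 to 35.3% of tested genes. fzy (Cdc20), which activates the anaphase-promoting complex in mitosis, was −1.79 in HP and −2.25 in LP diapause, and cort, its relative in female meiosis, −1.11 and −1.71. Rca1, which restrains that complex, was −1.45 and −1.73, and ago, the F-box protein that targets CycE, −1.03 and −1.06. fzr (Cdh1), which acts outside mitosis and in endocycles, was 0.10 and 0.12 in diapause and was not called. It was called higher in LP reproductive ovaries, with 0.19 to 0.24 and edgeR adjusted p up to 0.013 when single libraries were left out. Total-count scaling gave 0.04 there (adjusted p = 0.55). Roc1a, a shared ubiquitin ligase subunit, was higher by 0.66 and 0.67.

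Mitotic kinases and phosphatase regulators had 5 of 7 genes lower in HP and 6 of 7 in LP diapause ovaries, beside 34.7 and 35.3% of tested genes. aurB (Aurora B) was −1.76 and −2.13, aurA (Aurora A) −1.08 and −1.17, and polo, whose kinase activates Cdc25, −0.77 and −0.74. mts and tws, subunits of the phosphatase PP2A, had values of −0.07 and −0.25 in HP and −0.22 and −0.32 in LP. In reproductive ovaries 3 of 7 and 6 of 7 were lower, beside 33.1 and 33.7%. With total-count scaling all 7 were lower in each of the 4 comparisons, mts by 0.22 and endos by 0.25 in HP diapause and gwl by 0.20 in LP diapause among them. The 12 cyclins and Cdks outside the core engine were divided, with 4 higher and 4 lower in HP diapause, 3 higher and 5 lower in LP diapause and a list median of 0.00 and −0.02. Over all tested genes 34.0% were higher and 34.7% lower in HP, and 36.6% and 35.3% in LP, so these counts are near the background. CycJ, an ovary cyclin, was higher by 0.67 and 0.59, and Cdk9, a transcription kinase, by 0.43 and 0.71. Cdk8 was lower by 0.55 and 0.52 and Cdk5 by 0.48 and 0.33. With total-count scaling the counts were 2 higher and 6 lower in HP and 2 higher and 8 lower in LP, and CycG, at 0.22 and 0.24, lost both calls (0.07 and 0.01). Of 5 translational repressors that act on cyclin or germline mRNA, nanos (−1.42 and −1.11), brat (−0.82 and −1.0) and bam (−1.11 and −0.53) were lower, and bru1 was higher (0.22 and 0.34, of which the HP value was 0.08 and not called with total-count scaling).

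**Figure D5:**
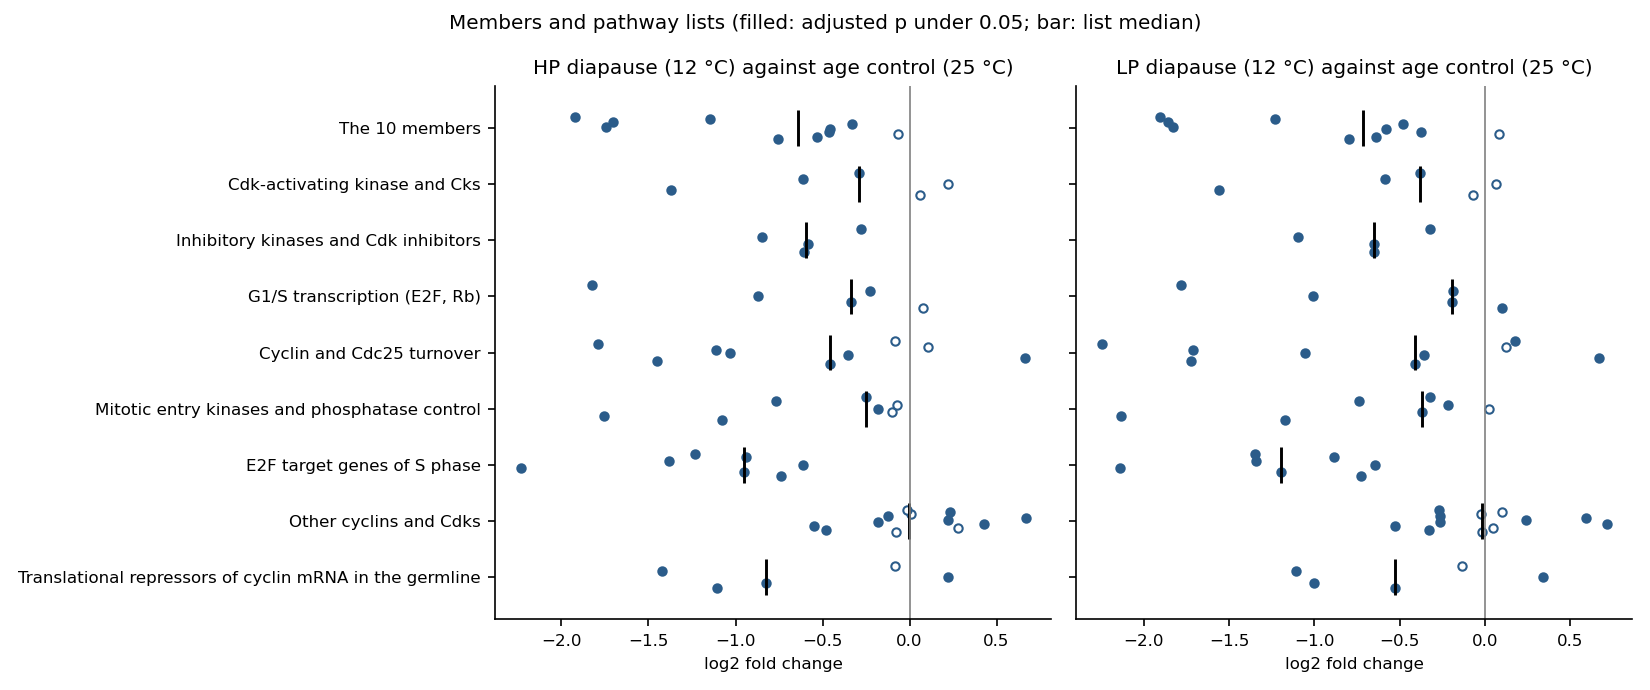
Log2 fold change (horizontal axis) of the 10 genes and of each gene of the 8 lists in diapause ovaries at 12 °C against age controls at 25 °C, HP on the left and LP on the right. Points are genes, filled when the adjusted p was under 0.05, and the bar is the list median. The E2F targets and the inhibitory kinases and Cdk inhibitors lie wholly below 0 in both lines, and the other cyclins and Cdks are spread around it.

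Between diapause and reproductive ovaries at 12 °C 15 of the 54 genes were lower in the mean of the lines and 0 higher, beside 5.94% of tested genes lower. In the HP line nanos alone was called (−0.57, adjusted p = 0.014), beside 0.653% of tested genes lower, and in the LP line 5 were, all lower, beside 1.11%. These were nanos (−0.45), fzy (−0.46), cort (−0.41), aurA (−0.41) and RnrL (−0.29), with adjusted p from 0.013 to 0.045. Dropping single libraries removed the calls of nanos in each line and of fzy, cort and RnrL in 5 of 6 fits, and that of aurA in 3. In the mean of the lines, calls that held in all 12 such fits were those of nanos (−0.51, SE 0.07, adjusted p = 0.00055), aurA (−0.33, SE 0.05, adjusted p = 0.0013), RnrL (−0.26, SE 0.05, adjusted p = 0.0036), cort (−0.31, SE 0.06, adjusted p = 0.0076), ago (−0.21, SE 0.05, adjusted p = 0.014) and Rca1 (−0.34, SE 0.08, adjusted p = 0.015). Cks30A (−0.31), Rbf2 (−0.35), Cul1 (−0.15), Orc1 (−0.36), dup (−0.22), polo (−0.15), tws (−0.15), brat (−0.28) and bam (−0.28) were called too, each with a call lost in 2 to 10 of the 12 fits. The inhibitors Wee1 (−0.12), Myt1 (−0.11) and dap (−0.18), as well as E2f1 (−0.06), Rbf (−0.05) and fzr (−0.06), were not called, and fzy was −0.23 (adjusted p = 0.052).

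The genes whose pattern was most like each member were found by the root-mean-square (RMS) difference of centred log2 CPM over the 18 libraries, with no test. Only tested protein-coding genes with a name other than a CG number or FBgn identifier were searched. A gene called nearest here is nearest among those alone. CycB3 was nearest to Cdc6, which loads the replicative helicase (0.058), then Cap-D2, of condensin, and mus301. twe was nearest to Caf1-105 (0.077), of the histone chaperone CAF-1, then Chd3 and CycB3 (0.11). CycE was nearest to bcd, the maternal anterior determinant (0.13), then tum and Irbp. stg was nearest to cact (0.073), spd-2 and Odj, and Cdk1 to d4 (0.056), Idgf4 and polo. For CycA these were swa (0.032), CD98hc and fal, for CycB Calx (0.043), superdeath and Pgant7, for CycD Tao (0.055), gro and Rcd1, for Cdk2 mmy (0.065), rl and Arfrp1, and for Cdk4 Wdfy2 (0.089), mRpL49 and pr. Among the members the closest pairs were Cdk1 with Cdk2 (0.11), CycA with CycB (0.11) and CycB3 with twe (0.11). The RMS of a gene's own centred values was 0.36 and 0.29 for Cdk1 and Cdk2 and 0.18 and 0.24 for CycA and CycB. It was 0.79 and 0.85 for CycB3 and twe. A given RMS difference is therefore a looser match for genes that varied little, such as CycA. All these values share the 18 libraries and their large step between 12 and 25 °C.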

How the data were processed

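The authors deposited raw read counts per gene for 18 libraries, unnormalized and unpooled. Columns of exon positions, strand and length come with them, per the file headers. Per the labels' protocols, the kits were mirVana for RNA and NEBNext Ultra II Directional for libraries. Trimmomatic, STAR, featureCounts and DESeq2 are named, without roles or versions, per the submitters' processing notes. Genome build, settings and strand handling are not given in the sources used here. Identifiers matched a gene symbol for 17556 genes, and 17540 had the same coordinates in the BDGP6.54 annotation, all 10 members included.

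Counts were scaled by TMM and filtered with filterByExpr (9037 genes). With edgeR 4.0.16 (in R 4.3.3, beside limma 3.58.1), the 18 libraries together entered a robust quasi-likelihood fit holding a mean for each group (12 residual degrees of freedom). The p-values were adjusted over the 9037 genes, and genes under 0.05 were called. The code was tested on simulated data. The labels call the libraries biological replicates but do not say what was separate, so p-values measure the spread between these libraries, which may be technical. The coefficient of variation of a member within a group was 0.72 to 17.0% (median 4.95%).

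Alternatives were total-count scaling, DESeq2 1.42.0, no filter, a fit to the compared groups, a replicate block, each library left out and, chosen after seeing the data, scaling without marker genes other than germline. Named were the 10 members, up to 4 called genes of each list and comparison with the smallest adjusted p, Wee1, Myt1, dap, fzr, fzy, E2f1 and Rbf, and the 3 nearest genes of each member. Roc1a was named after its values were seen. The members and lists were chosen with earlier results of these data known. Sequences were not used here.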

Additional observations from a re-analysis of the deposited data

Results flagged for a closer look

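For 11 results the difference between states itself differed between the lines, by the interaction contrast of edgeR (LP difference minus HP difference, log2, adjusted p over the 9037 tested genes). Of the 10 members and 54 list genes, 7 of 64 were called for diapause and 4 of 64 for reproductive ovaries against age controls, below the 18.4% and 16.6% of all tested genes. Among the members this was Cdk4, for reproductive against age control (0.34, adjusted p = 0.020), with −0.32 in HP and 0.03 in LP. That call was lost when HP reproductive replicate 1, LP reproductive replicate 2 or LP age-control replicate 3 was left out.

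The meiotic gene cort fell more in LP, by −0.60 for diapause (adjusted p = 0.0017) and −0.40 for reproductive ovaries (adjusted p = 0.026) against age controls. The germline gene bam fell less in LP, by 0.58 for diapause (adjusted p = 0.013) and 0.64 for reproductive ovaries (adjusted p = 0.0063). Cdk9 rose more in LP, by 0.29 (adjusted p = 0.049) and 0.34 (adjusted p = 0.021). For diapause against age control fzy (−0.46, adjusted p = 0.029), endos (−0.27, adjusted p = 0.015) and Eip63E (−0.26, adjusted p = 0.034) had a more negative difference in LP, and for gwl it was −0.18 in HP and 0.02 in LP (0.20, adjusted p = 0.041). Of 6 other settings, the Cdk9 value for diapause was not called in 5, that for reproductive ovaries in 2, gwl in 3 and Eip63E in 1. Total-count scaling gave 0.20 and 0.27 for Cdk9 and 0.12 for gwl. With single libraries left out, the Cdk9 values lost their calls in 9 and 3 of 12 fits, Eip63E in 9, gwl in 8, fzy in 6 and the cort value for reproductive ovaries in 5. Both bam values, endos and the cort value for diapause were called in all 12. Groups of 3 libraries were not tested for single outlying values.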

How the results depend on the processing

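All 37 calls against age controls held under each alternative. Counts of members called moved elsewhere. For HP diapause against reproductive (0) they were 1 with total counts, 2 with DESeq2 and 5 in the fit to the compared groups. Of all tested genes DESeq2 called 3.51% there and that fit 8.04%, in either direction. For LP (1) they were 2, 6 and 3, and 0 to 1 with a library left out. Over all genes DESeq2 called 447 of 9037 in LP and the fit to the compared groups 290 of 8409. The mean of the lines (5) gave 6 with total counts, and 7 with DESeq2 and in the fit to the compared groups (13.9% and 18.8% of tested genes). It gave 4 without the filter and with the replicate block, and 2 to 5 with a library left out. LP against HP in diapause (2) gave 1 without the filter and 1 in all 6 fits with a library left out, in reproductive ovaries (2) 5 in the fit to the compared groups and 1 to 2 with a library left out, and in age controls (2) 1 without the filter, 1 in the fit to the compared groups and 1 to 2. The interaction for reproductive against age control (1) gave 0 with total counts and in the fit to the compared groups (1331 of 8837 tested genes called). With a library left out it gave 0 to 1. The causes were not tested.

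Signs changed for CycD in HP diapause against reproductive with total counts (−0.019) and for Cdk4 against age controls in LP diapause (−0.15) and LP reproductive ovaries (−0.16) with total counts, and in the latter without LP reproductive replicate 2 (−0.04) or LP age-control replicate 3 (−0.04), within a range of −0.043 to 0.095 with a library left out. With a library left out, the ratios between diapause and reproductive ovaries ran from −0.043 to 0.012 for CycA/Cdk1 (0.0065, 0.0015 and 0.012 without HP diapause replicate 2, LP diapause replicate 1 and LP diapause replicate 2), −0.14 to −0.088 for CycB/Cdk1, −0.19 to −0.12 for CycB3/Cdk1, −0.23 to −0.15 for CycD/Cdk4 and −0.13 to −0.086 for stg/Wee1, and CycD/Cdk4 in reproductive against age control from −0.28 to −0.16.

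Deviations from the group means showed little correlation between same-numbered libraries (2 of 45 pairs with a correlation over 0.1, range −0.16 to 0.16). With 3 libraries per group this cannot show whether they shared a batch or collection. With the replicate block the mean CycA call between diapause and reproductive ovaries was lost (−0.12, adjusted p = 0.0501), and so were the ratios CycE/Cdk2 (−0.28, adjusted p = 0.077), CycD/Cdk4 (−0.18, adjusted p = 0.077) and stg/Wee1 (−0.11, adjusted p = 0.10). Over all genes the 77 HP calls between diapause and reproductive ovaries were 117 with total counts, 48 without the filter, 317 with DESeq2 and 663 in the fit to the compared groups. The 131 LP calls were 447 with DESeq2 and 290 in that fit, and the 855 of the mean 1638. With a library left out, the HP calls were 7 (without HP reproductive replicate 1) to 45, the LP calls 6 (without LP diapause replicate 3) to 247 (without LP diapause replicate 2) and those of the mean 378 (without HP reproductive replicate 1) to 906, so the background shares in these contrasts move as well. The lowest count of a member in any library was 439, for twe.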
